A study of Homo sapiens with 8 samples.

Results

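The HIF subunit genes are the 5 genes *HIF1A*, *EPAS1*, *HIF3A*, *ARNT* and *ARNT2*, taken by their gene symbols from 23193 genes counted by PRO-seq. HIF is a dimer of an oxygen-sensitive alpha subunit, encoded by *HIF1A*, *EPAS1* (HIF2A) or *HIF3A*, and a stable beta subunit, encoded by *ARNT* (HIF1B) or *ARNT2*. Where oxygen is ample, prolyl hydroxylases mark the alpha subunits for destruction through the von Hippel-Lindau protein, so that their control lies mainly in the protein and not in the transcription of their genes. In hypoxia the alpha subunits escape this, pair with a beta subunit and bind DNA at short hypoxia response elements.

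PRO-seq is a nuclear run-on assay that sequences RNA at the active site of engaged RNA polymerase. It was run on HCT116 cells, a human colorectal carcinoma line, as WT cells and as a HIF1A-/- line in which exons 3 and 4 of *HIF1A* had been disrupted. Each genotype was kept in normoxia or placed in 1% O2 with 5% CO2 for 90 min, and every culture of all 4 groups received the vehicle DMSO. Each of the 4 groups had 2 libraries, which makes 8, and a single knockout line stands for the genotype, so line and genotype cannot be told apart. The study's methods describe the libraries of a group as independent biological duplicates. In such bulk libraries, fewer cells transcribing a gene and less transcription per cell cannot be told apart.

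Each library held 18125234 to 23622392 gene body reads and 2783581 to 5966348 reads in TSS regions, which are short windows around the transcription start site. The share of reads in TSS regions was 11.2% and 12.9% in the HIF1A-/- libraries numbered 1 (normoxia and hypoxia) and 16.9% to 20.2% in the other 6. Of the epithelial marker genes, 8 of 9 passed the filter on low counts, and their summed gene body level was 852 to 1228 reads per 1000000 gene body reads (CPM, counted against TSS reads for TSS regions) over the 8 libraries. The summed markers of blood stayed at or below 1.43 CPM with 0 of 5 passing, those of endothelium at 11.8 to 35.5 CPM with 3 of 5 passing and those of fibroblasts at 19.5 to 53.0 CPM with 2 of 5 passing.

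The disrupted exons of *HIF1A* are shown because they decide what the counts can say about the genotype. They lie in the gene body (GRCh37, chr14:62163119-62214977, plus strand), have 231 bases together and make up 0.445% of it, and reads over the rest of the gene are counted in both genotypes. Their reference sequence is given in lower case throughout.
HIF1A exon 3, chr14:62188227-62188372, plus strand: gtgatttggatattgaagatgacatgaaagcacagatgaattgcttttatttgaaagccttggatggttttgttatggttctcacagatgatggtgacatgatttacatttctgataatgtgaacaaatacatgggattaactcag
HIF1A exon 4, chr14:62188457-62188541, plus strand: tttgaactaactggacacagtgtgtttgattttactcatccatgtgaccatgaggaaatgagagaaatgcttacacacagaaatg
The read count of *HIF1A* therefore does not test the genotype label. A list of 10 known HIF target genes, chosen with earlier results of these data known, describes the response instead. In their gene bodies, 9 of 10 were called higher with hypoxia in WT cells, where 0.431% of all genes were called, and 0 of 10 were called in HIF1A-/- cells, where 0% of all genes were. The median log2 changes of the list were 2.36 and 0.03. CA9, a gene of this list, passed the filter on low counts only through its WT hypoxia libraries, with 23 and 28 reads. Every other library had 6 or fewer, so its values only describe a gene kept where it was high.

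The 250 bases before the start site used for each gene were searched for ACGTG and GCGTG, the core letters of hypoxia response elements, on both strands. Of these windows, 3 are shown: those of *HIF1A* and *EPAS1*, the members with a match, and that of LOC105370526. LOC105370526 is an RNA gene antisense to *HIF1A* that is described with its locus. Whether the matches bear on any result was not tested. The capitals mark the matches, and the sequences are GRCh37, read 5′ to 3′ on the strand of the gene.
HIF1A, chr14:62161868-62162117, plus strand: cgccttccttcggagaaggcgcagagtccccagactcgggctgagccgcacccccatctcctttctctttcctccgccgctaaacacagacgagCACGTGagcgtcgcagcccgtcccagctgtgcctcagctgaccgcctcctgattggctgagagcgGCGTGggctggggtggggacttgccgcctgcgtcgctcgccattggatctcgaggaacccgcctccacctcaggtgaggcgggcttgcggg
EPAS1, chr2:46524290-46524539, plus strand: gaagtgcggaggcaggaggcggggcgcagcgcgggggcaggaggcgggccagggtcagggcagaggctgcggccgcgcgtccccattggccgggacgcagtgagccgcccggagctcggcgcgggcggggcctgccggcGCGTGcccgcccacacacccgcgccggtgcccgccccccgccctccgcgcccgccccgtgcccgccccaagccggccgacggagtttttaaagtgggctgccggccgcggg
LOC105370526, chr14:62217816-62218065, minus strand: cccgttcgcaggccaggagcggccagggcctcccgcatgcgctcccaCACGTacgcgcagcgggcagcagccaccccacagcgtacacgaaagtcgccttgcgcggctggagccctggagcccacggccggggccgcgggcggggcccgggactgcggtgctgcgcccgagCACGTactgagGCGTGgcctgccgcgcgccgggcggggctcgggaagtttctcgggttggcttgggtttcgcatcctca
The *HIF1A* window held ACGTG 2 times, as the overlapping matches on the opposite strands of CACGTG, and GCGTG 1 time. The window of *EPAS1* held GCGTG 1 time, and those of *HIF3A*, *ARNT* and *ARNT2* held neither. Over the windows of all 23193 genes, 19% held ACGTG, 35.9% held GCGTG and 47% held at least 1 of them, so a match is common and does not show binding.

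All 5 genes passed the filter on low counts in both regions. Per kilobase of gene body, *HIF1A* had the highest level, with a median of 2.96 CPM per kb over the 8 libraries (range 2.49 to 3.32). It was followed by *ARNT* at 0.890 (0.800 to 1.14), *EPAS1* at 0.598 (0.283 to 0.866), *ARNT2* at 0.152 (0.137 to 0.203) and *HIF3A* at 0.0289 (0.0140 to 0.0398). The ranges of *ARNT* and *EPAS1* overlapped, and no other neighbours in this order did. Against the 16686 genes tested in the gene body, *HIF1A* lay above 75.8% of genes in mean level per kilobase, *ARNT* above 40.8%, *EPAS1* above 31.2%, *ARNT2* above 17.6% and *HIF3A* above 7.26%.

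The order differed in the TSS regions. There *HIF1A* had a median of 409 CPM per kb (310 to 459), *EPAS1* 96.8 (60.6 to 138), *ARNT* 13.0 (9.04 to 15.7), *ARNT2* 9.91 (4.76 to 15.3) and *HIF3A* 1.76 (0.423 to 3.68). The ranges of *ARNT* and *ARNT2* overlapped and the other neighbours were separate. *EPAS1* and *ARNT* thus exchanged places: *EPAS1* lay above 60.1% of the 15212 genes tested in the TSS region and *ARNT* above 22.5%.

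**Figure D1:**
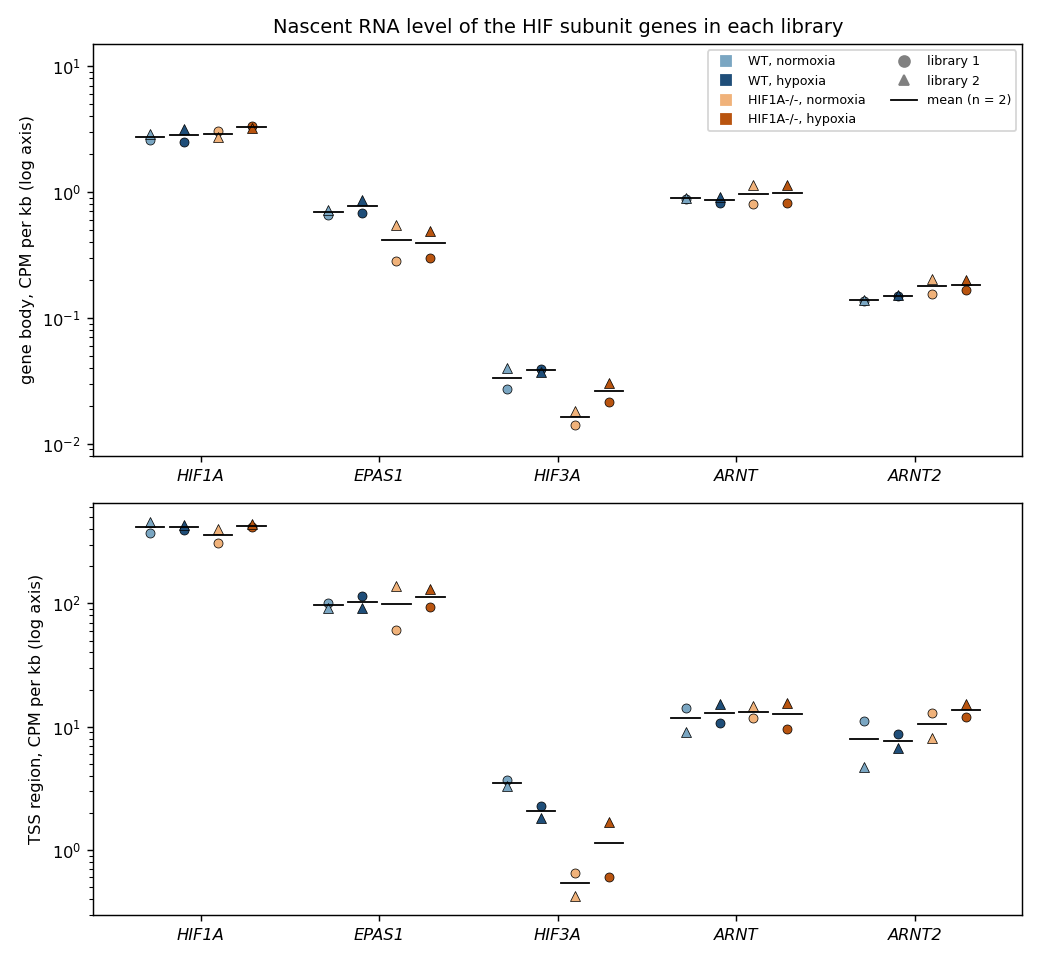
Level of the 5 genes in each library, as CPM per kb in the gene body (upper panel) and in the TSS region (lower panel), both on log axes, with colours for the 4 groups, symbols for the library numbers and bars for the means of 2 libraries. In the gene body, the HIF1A-/- libraries of *EPAS1* lie at 0.283 to 0.542 CPM per kb, below every WT library, while in the TSS region its genotypes overlap.

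The first comparison asks whether acute hypoxia changed transcription of the genes that encode HIF, and no member was called in any region. In the gene body, 0 of 5 members changed with hypoxia in WT cells, where 0.431% of all 16686 genes were called by edgeR's quasi-likelihood test at a false discovery rate of 10%. In HIF1A-/- cells 0 of 5 were called, as were 0% of all genes, and for the difference between the genotypes in this response 0 of 5 were called against 0.0539% of all genes. Averaged over both genotypes the member count was again 0, against 0.0899%. With the replicate number as a block, no member was called in these comparisons either, while the shares of all genes were larger. They were 5.51% in WT cells (623 genes higher and 296 lower) and 0.0360% in HIF1A-/- cells. For the genotype difference the share was 0.384%, and averaged it was 10.1%.

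*HIF1A* itself encodes the alpha subunit that is best known for the acute response. Its gene body CPM was 134 and 150.1 in normoxic and 129 and 164 in hypoxic WT cells, and 157 and 141 in normoxic and 172 and 166 in hypoxic HIF1A-/- cells. The WT libraries of the 2 oxygen levels overlapped. In HIF1A-/- cells the hypoxia libraries lay above those in normoxia in CPM, but not with the TMM scaling used in the fits. So scaled, they were 175 and 158 in hypoxia against 165 and 137 in normoxia. The log2 change with hypoxia was 0.01 in WT cells (SE 0.156, 95% interval -0.35 to 0.37) and 0.14 in HIF1A-/- cells (SE 0.156, interval -0.22 to 0.50). At the start site, *HIF1A* had 206 and 253 CPM in normoxic and 219 and 238 in hypoxic WT cells, and 171 and 222 in normoxic and 228 and 243 in hypoxic HIF1A-/- cells, where normoxia and hypoxia overlapped in WT cells and did not in HIF1A-/- cells. The change there was 0.02 in WT cells (-0.34 to 0.38) and 0.26 in HIF1A-/- cells (-0.11 to 0.62).

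The other alpha subunits had wider intervals. The gene body of *EPAS1* changed by 0.13 on the log2 scale in WT cells (-0.54 to 0.81) and -0.10 in HIF1A-/- cells (-0.79 to 0.58). *HIF3A*, whose product has splice forms that restrain the other alpha subunits, had 22 and 28 gene body reads in normoxic and 29 and 34 in hypoxic WT cells, and 12 and 15 in normoxic and 17 and 24 in hypoxic HIF1A-/- cells. Its log2 change was 0.16 in WT cells (-0.81 to 1.13) and 0.65 in HIF1A-/- cells (-0.39 to 1.68), and both intervals include a 2-fold rise.

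For the beta subunits, *ARNT*, the general partner, changed in the gene body by -0.07 in WT cells (-0.49 to 0.36) and -0.02 in HIF1A-/- cells (-0.44 to 0.40) on the log2 scale. *ARNT2*, a partner best known from neural tissue, changed by 0.09 (-0.27 to 0.45) and 0.01 (-0.35 to 0.36). The gene body intervals of *HIF1A*, *EPAS1*, *ARNT* and *ARNT2* lie within a 2-fold change in either direction after 90 min, in both genotypes. Those of *HIF3A* do not, nor do those of *HIF3A*, *ARNT* and *ARNT2* in the thinner TSS counts, where *ARNT* had 16 to 50 reads and *ARNT2* 10 to 36 per library.

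In the TSS regions, 0 of 5 members were called with hypoxia in WT cells (0.0460% of all 15212 genes), in HIF1A-/- cells (0%), for the genotype difference in response (0.00657%) and averaged over both genotypes (0.00657%). The TSS-to-body ratio, a measure of how much polymerase sits near the start for each polymerase in the body, was likewise called for 0 of 5 members. The shares of all 14494 genes tested for it were 0.193% in WT cells, 0% in HIF1A-/- cells, 0.0207% for the genotype difference and 0.0276% averaged.

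**Figure D2:**
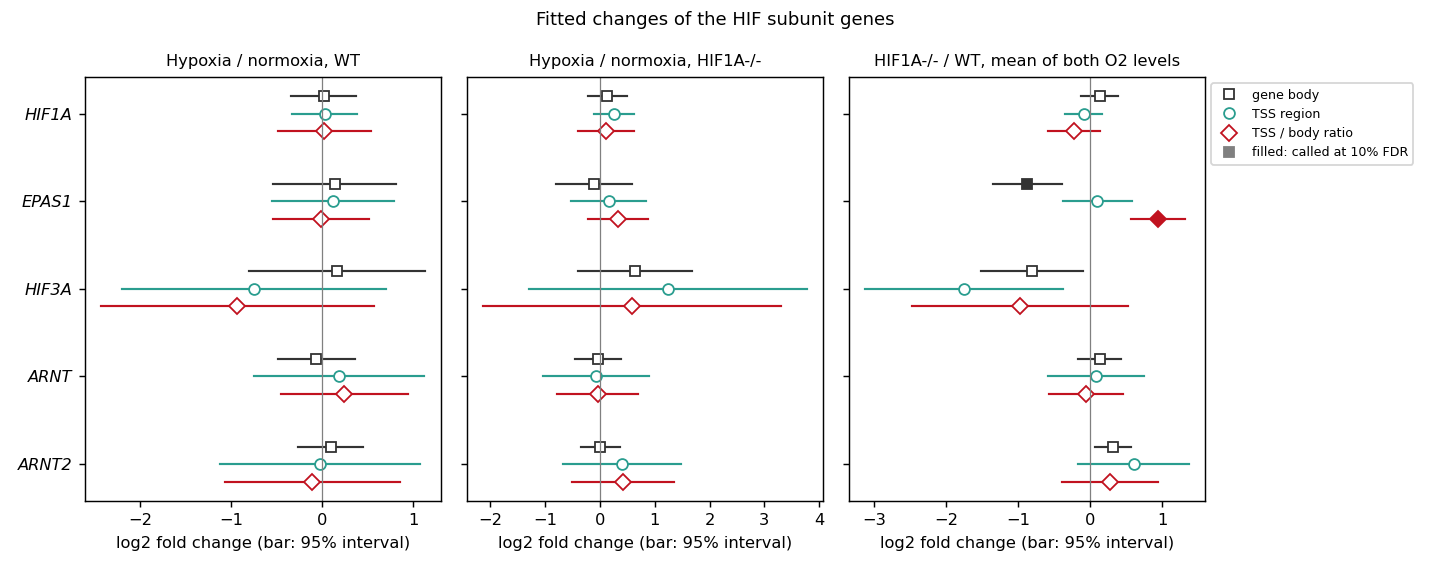
Log2 fold changes of the 5 genes for hypoxia over normoxia in each genotype and for HIF1A-/- over WT averaged over both oxygen levels, with 95% intervals as bars and with squares, circles and diamonds for gene body, TSS region and TSS-to-body ratio. Filled symbols, called at a false discovery rate of 10%, occur only for *EPAS1* in the genotype panel, at -0.87 for the gene body and 0.94 for the ratio.

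Between the genotypes, 1 member differed. In the gene body *EPAS1* had 57.7 and 63.7 CPM in normoxic and 59.8 and 76.5 in hypoxic WT cells, and 25.0 and 47.9 in normoxic and 26.3 and 43.3 in hypoxic HIF1A-/- cells. All 4 HIF1A-/- libraries lay below all 4 WT libraries, and the HIF1A-/- libraries numbered 1 were the lowest. The mean was 60.7 ± 4.27 CPM (SD, n = 2) against 36.4 ± 16.2 in normoxia and 68.1 ± 11.8 against 34.8 ± 12.02 in hypoxia.

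Averaged over both oxygen levels, *EPAS1* fell by 0.87 on the log2 scale in the gene body (SE 0.210, 95% interval -1.36 to -0.39), a 1.83-fold lower level in HIF1A-/- cells, with an adjusted p of 0.0548 by edgeR's quasi-likelihood test. It was 1 of 5 members called, where 10.0% of all genes were called, so 1 call among 5 genes is not far above the background. With the replicate number as a block it was called as well (adjusted p = 0.00101), together with *HIF3A* at -0.81 (adjusted p = 0.0375) and *ARNT2* at 0.32 (adjusted p = 0.0245), so 3 of 5 members were called where 36.0% of all genes were. The call of *EPAS1* without the block was lost when any of 5 libraries was left out: WT normoxia 1 (adjusted p = 0.133) or 2 (0.204), WT hypoxia 1 (0.101) or 2 (0.196), or HIF1A-/- hypoxia 1 (0.157). Without both HIF1A-/- libraries numbered 1 it was -0.54 (adjusted p = 0.108).

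At each oxygen level on its own, 0 of 5 members were called in the gene body (1.78% of all genes in normoxia and 4.26% in hypoxia). *EPAS1* stood at -0.75 in normoxia (adjusted p = 0.477 by edgeR) and -0.99 in hypoxia (adjusted p = 0.161). With the replicate block it was called at each, at -0.80 with an adjusted p of 0.0242 (10.3% of all genes called) and at -1.01 with an adjusted p of 0.00496 (28.2%).

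At its start site *EPAS1* was not called. The TSS region held 55.2 and 50.9 CPM in normoxic and 62.7 and 50.3 in hypoxic WT cells, and 33.4 and 75.8 in normoxic and 51.5 and 72.2 in hypoxic HIF1A-/- cells. The genotypes overlapped, and the lowest and the highest value both came from HIF1A-/- normoxia. The averaged log2 change was 0.10 (SE 0.221, 95% interval -0.38 to 0.58). Of 10 transcript starts that the GENCODE annotation gives *EPAS1*, 1 lies 3.73 kb upstream of the start site used. Transcription from that start was not measured at its own promoter. No member was called in the TSS regions: 0 of 5 in normoxia (0.657% of all genes), 0 of 5 in hypoxia (1.10%) and 0 of 5 averaged (6.39%).

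The ratio of TSS to body density brings the regions of *EPAS1* together. It was 32.9 and 26.9 in normoxic and 42.1 and 26.6 in hypoxic WT cells, and 27.1 and 51.5 in normoxic and 46.5 and 56.5 in hypoxic HIF1A-/- cells. These raw ratios overlapped between the genotypes. The median ratio of all tested genes was lower in the HIF1A-/- libraries, however, at 5.83 and 6.66 in those numbered 1 and 9.29 and 9.36 in those numbered 2, against 9.76 to 11.5 in WT libraries.

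Relative to each table's own total, the *EPAS1* ratio rose in HIF1A-/- cells by 0.94 on the log2 scale averaged over both oxygen levels (SE 0.180, 95% interval 0.56 to 1.32, adjusted p = 0.0143 by edgeR's quasi-likelihood test), or 1.92-fold. It was the sole member called, where 2.84% of all genes were. In hypoxia alone it was 1.11 (SE 0.252, adjusted p = 0.0676, 1 of 5 members against 0.718% of all genes), and in normoxia 0.77 (adjusted p = 0.630, 0 of 5 members against 0.0759%). With the reads of both tables together as library size, the averaged value was 0.49 (adjusted p = 0.207) and that in hypoxia 0.62 (adjusted p = 0.340), while *HIF1A* was then called lower at -0.69 (adjusted p = 0.0857). The averaged call was lost without WT hypoxia 2 (0.78, adjusted p = 0.107) and without both HIF1A-/- libraries numbered 1 (0.97, adjusted p = 0.132). Those libraries have the lowest TSS share of reads. The call in hypoxia was lost without WT normoxia 2 (adjusted p = 0.102 by edgeR), WT hypoxia 2 (0.816) or HIF1A-/- hypoxia 1 (0.651) or 2 (0.195), and without both HIF1A-/- libraries numbered 1 (0.599).

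**Figure D3:**
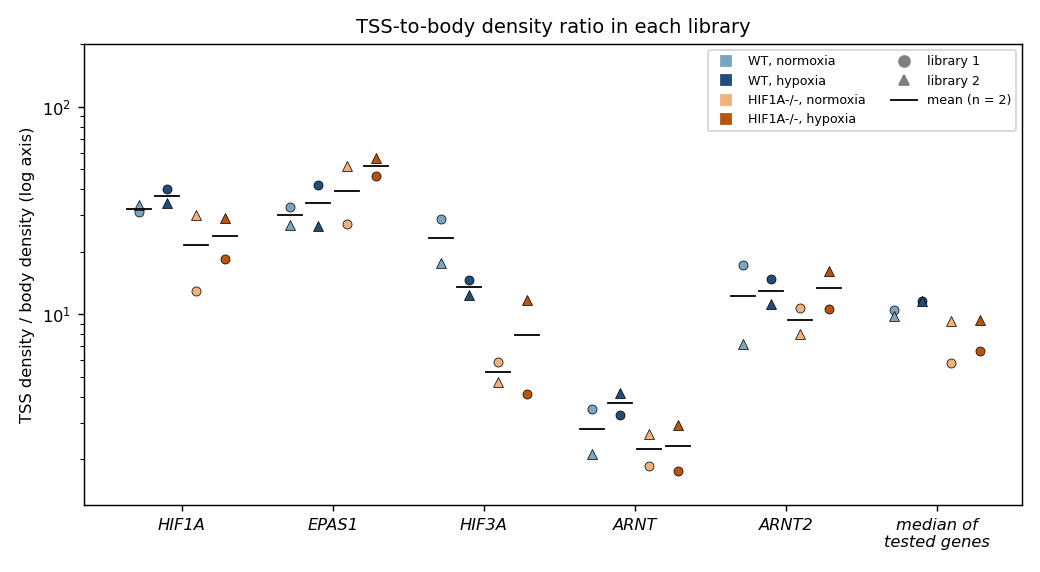
TSS density over gene body density in each library for the 5 genes and, at the right, the median of all tested genes, on a log axis, with bars for the means of 2 libraries. The ratio of *EPAS1* runs from 26.6 to 56.5 with overlapping genotypes, while the median of all tested genes is lower in the HIF1A-/- libraries, at 5.83 to 9.36 against 9.76 to 11.5 in WT libraries.

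The difference between the regions of *EPAS1* was moderate beside other genes. Its genotype change in the gene body minus that in the TSS region was -0.97 on the log2 scale, and 6.21% of 14494 genes had a difference at least as far from 0.

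*HIF3A* had the lowest level and the thinnest counts. Its TSS region held 9 and 7 reads in normoxic and 6 and 6 in hypoxic WT cells, and 1 and 1 in normoxic and 1 and 4 in hypoxic HIF1A-/- cells. Every HIF1A-/- library lay below every WT library. The WT over HIF1A-/- ratio of summed TSS reads, each over its library totals, was 3.03 over both oxygen levels (28 against 7 reads, 95% counting interval 1.29 to 8.21). It was 6.86 in normoxia (16 against 2 reads, interval 1.61 to 61.5) and 1.63 in hypoxia (12 against 5 reads, interval 0.535 to 5.91, which includes 1). The region passed the filter on low counts, 0.5 CPM in at least 2 libraries, through its WT libraries, at 1.01 to 2.03 CPM. Only 1 HIF1A-/- library exceeded it. These ratios and the fitted change therefore only describe a gene kept by the group where it was high. The counting intervals also leave out the spread between libraries. The fitted change was -1.75 (SE 0.636, 95% interval -3.13 to -0.37), with an adjusted p of 0.157 by edgeR, and of 0.0934 with the replicate block, where it was 1 of 5 members called against 22.3% of all genes. In the gene body its averaged change was -0.81 (interval -1.52 to -0.10, adjusted p = 0.182), and the genotypes overlapped in CPM. Only a single start site per gene was counted: of 16 transcript starts that the GENCODE annotation gives *HIF3A*, 9 lie more than 1 kb upstream of the one used, up to 6.56 kb away, and transcription from these starts was not measured at its own promoter.

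With each table scaled on its own, *HIF1A* was not called between the genotypes in any region. Its averaged log2 change was 0.13 in the gene body (95% interval -0.12 to 0.39) and -0.09 in the TSS region (-0.34 to 0.17), and the ratio of TSS to body density changed by -0.22 (-0.58 to 0.14).

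Without the replicate block, neither beta subunit gene was called between the genotypes by edgeR. *ARNT* had 58.0 and 59.5 CPM in normoxic and 54.2 and 60.5 in hypoxic WT cells, and 52.9 and 74.9 in normoxic and 54.0 and 75.1 in hypoxic HIF1A-/- cells. The genotypes overlapped, and in each HIF1A-/- group the library numbered 2 was the higher. *ARNT2* had 26.3 and 26.7 CPM in normoxic and 28.6 and 29.1 in hypoxic WT cells, and 29.5 and 39.0 in normoxic and 32.3 and 38.4 in hypoxic HIF1A-/- cells, so its genotypes did not overlap. The averaged changes were 0.13 for *ARNT* (interval -0.17 to 0.43, adjusted p = 0.612 by edgeR) and 0.32 for *ARNT2* (interval 0.07 to 0.57, adjusted p = 0.143), which passed with the pairing as a block (adjusted p = 0.0245) and by DESeq2 without that block (adjusted p = 0.0950) and with it (adjusted p = 0.0192).

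Around the members, 18 other genes lay within 100 kb of a counted region, and 11 of them passed the filter. In WT hypoxia 2 of these 11 rose in the gene body, where 0.431% of all genes were called, and both lie at the *HIF1A* locus. LOC105370526 starts 2838 bp beyond the end of the *HIF1A* gene body and runs back through it on the opposite strand (chr14:62182275-62216814, minus strand), covering 63.1% of the *HIF1A* gene body, exons 3 and 4 included. It had 59 and 45 gene body reads in normoxic and 1307 and 2899 in hypoxic WT cells, and 232 and 101 in normoxic and 186 and 156 in hypoxic HIF1A-/- cells. Both WT hypoxia libraries stood far above the other 6, which were 232 reads or fewer.

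The antisense gene rose 35.0-fold with hypoxia in WT cells (log2 5.13, SE 0.479, adjusted p = 0.00761 by edgeR's quasi-likelihood test), and its change in HIF1A-/- cells was 0.08 (95% interval -0.88 to 1.04). The difference between the genotypes in this response was called (-5.05, SE 0.618, adjusted p = 0.0799). Leaving out either WT normoxia library lost the WT call (adjusted p = 0.197 and 0.222), with the change still at 5.25 and 5.02. The call of the genotype difference was lost without WT normoxia 1 (adjusted p = 0.528 by edgeR) or 2 (0.785), WT hypoxia 1 (0.123) or 2 (0.314), HIF1A-/- hypoxia 1 (0.198) or 2 (0.267), and without both HIF1A-/- libraries numbered 1 (0.276), with the difference between -5.40 and -4.49. In its TSS region it rose from 132 and 201 reads in normoxic to 792 and 1734 in hypoxic WT cells (log2 2.51, SE 0.300, adjusted p = 0.0144), with 149 and 247 in normoxic and 170 and 295 in hypoxic HIF1A-/- cells. Its promoter window, printed above, held ACGTG 2 times and GCGTG 1 time.

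*HIF1A* and this gene overlap on opposite strands, so counting by strand matters here. The labels call the libraries strand-specific, and the counts bear on it: all 437 genes nested in a gene of their own strand had no gene body reads, against 185 of 876 nested only in a gene of the opposite strand. Reads shared by genes of the same strand were thus left out, and those of opposite strands were kept apart. HIF1A-AS2, which lies within LOC105370526 on the same strand, accordingly had 0 gene body reads in all 8 libraries. Its TSS region had 0 and 3 reads in normoxic and 42 and 117 in hypoxic WT cells, and 3 or 4 in each HIF1A-/- library (adjusted p = 0.0686 for WT hypoxia by edgeR), but that window also lies in the antisense gene. HIF1A-AS1, which runs upstream from near the *HIF1A* start, had 21 to 73 gene body reads per library and was not called.

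SNAPC1, which encodes a subunit of the small nuclear RNA activating complex and starts 66956 bp downstream of the *HIF1A* start on the same strand, also rose. It had 40.5 and 41.7 CPM in normoxic and 68.4 and 91.5 in hypoxic WT cells, and 42.0 and 43.0 in normoxic and 40.2 and 43.4 in hypoxic HIF1A-/- cells. Only the WT hypoxia libraries were high. The change was 0.93 in WT cells (SE 0.157, adjusted p = 0.0894 by edgeR, and 0.00995 with the replicate block) and -0.07 in HIF1A-/- cells. The genotype difference of -0.996 was not called by edgeR (adjusted p = 0.638, and 0.109 with the block). DESeq2 called it without the block (adjusted p = 0.0462) and with it (adjusted p = 0.00187). The WT call without the block was lost when any of 5 libraries was left out: WT normoxia 1 (adjusted p = 0.878) or 2 (0.702), WT hypoxia 2 (0.664), or HIF1A-/- hypoxia 1 (0.143) or 2 (0.138). It was also lost in a fit of only the groups compared and without both HIF1A-/- libraries numbered 1 (adjusted p = 0.153 in each by edgeR). Averaged over both oxygen levels, SNAPC1 fell by 0.45 on the log2 scale in HIF1A-/- cells (adjusted p = 0.0587 by edgeR). It was the sole neighbour called of the 11 tested in the gene body, where 10.0% of all genes were called. The averaged call of SNAPC1 was lost without any 1 library other than WT hypoxia 1 (adjusted p = 0.106 to 0.201). Its start lies 11259 bp from that of LOC105370526, and the genes run away from each other. *HIF1A*, whose gene body ends before both starts, changed by 0.01 in the same WT cells.

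Of the neighbours of other members, CTSK encodes the protease cathepsin K and lies just past the end of *ARNT* on the same strand. The *ARNT* gene body ends at chr1:150782180, and that of CTSK begins at chr1:150779916. Their start sites lie 68327 bp apart. CTSK was called higher in HIF1A-/- cells in its TSS region. It had 11.5 and 12.6 TSS CPM in normoxic and 9.89 and 11.6 in hypoxic WT cells, and 21.9 and 19.6 in normoxic and 22.6 and 19.2 in hypoxic HIF1A-/- cells. All HIF1A-/- libraries were higher, and the averaged change was 0.87 (SE 0.213, adjusted p = 0.0514 by edgeR), where 6.39% of all genes were called. In the gene body its averaged change was 0.45, called with the replicate block alone (adjusted p = 0.0852, against 0.240 without). The same held for CTSS, which encodes cathepsin S and had an averaged gene body change of 0.61 (adjusted p = 0.0587 with the block and 0.261 without). With the block, 36.0% of all genes were called in this comparison.

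**Figure D4:**
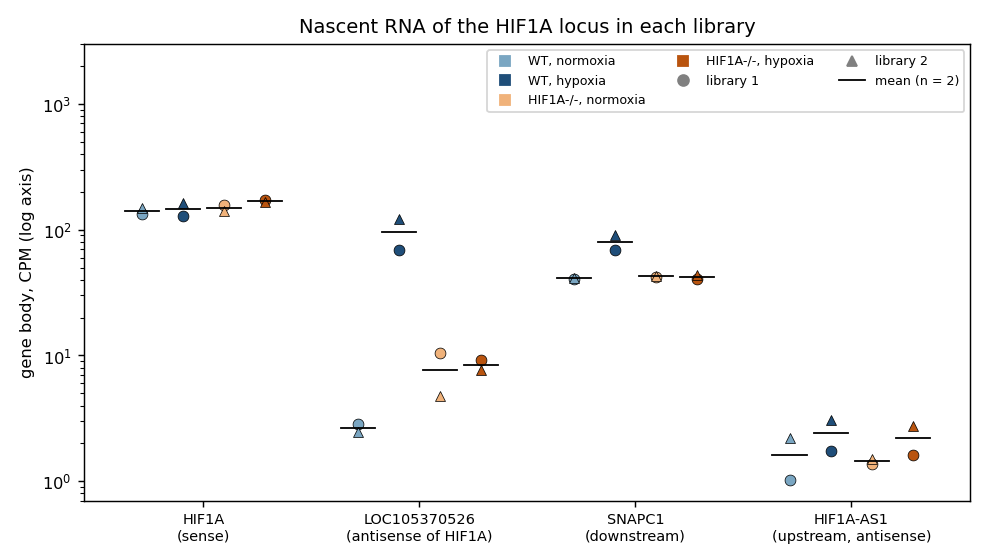
Gene body CPM of *HIF1A*, its antisense gene LOC105370526, the downstream SNAPC1 and the upstream antisense HIF1A-AS1 in each library, on a log axis, with bars for the means of 2 libraries. LOC105370526 stands at 68.8 and 123 CPM in WT hypoxia against 2.48 to 10.5 in the other 6 libraries, and SNAPC1 at 68.4 and 91.5 against 40.2 to 43.4, while *HIF1A* stays between 129 and 172.

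Of the machinery that senses oxygen and degrades the alpha subunits, 8 of 9 listed genes were tested in the gene body, and 2 rose with hypoxia in WT cells and 0 fell, where 0.431% of all genes were called. EGLN2, another prolyl hydroxylase, had 0 gene body reads in all 8 libraries, although its TSS region passed the filter. Its gene body could therefore not be tested, and counts of 0 also occur where genes of the same strand share reads. Whether that holds for EGLN2 was not tested. EGLN1, the main prolyl hydroxylase, had 139 and 118 CPM in normoxic and 304 and 382 in hypoxic WT cells and 102 to 110 in the 4 HIF1A-/- libraries, a log2 change of 1.38 in WT cells (SE 0.154, adjusted p = 0.0196 by edgeR). EGLN3, the prolyl hydroxylase known as the most hypoxia-inducible, went from 14.5 and 15.4 CPM to 53.0 and 85.4 in WT cells and had 11.6 to 19.2 in HIF1A-/- cells, a change of 2.18 (SE 0.275, adjusted p = 0.0314). In HIF1A-/- cells 0 of 8 were called. The list's median change in WT cells was -0.07, against -0.02 for all genes, and the other 6 tested genes were not called. Averaged over both oxygen levels, 2 of 8 were lower in HIF1A-/- cells in the gene body, against 10.0% of all genes called: EGLN1 (-0.997, adjusted p = 0.00216 by edgeR) and EGLN3 (-1.17, adjusted p = 0.0125). In the TSS regions 1 of 8 was called, against 6.39% of all genes, and this was EGLN2, which was higher (1.06, adjusted p = 0.0173). VHL, the substrate receptor of the ligase, had 36.5 to 43.5 CPM over the 8 libraries, and HIF1AN, the asparaginyl hydroxylase that blocks coactivator binding, had 88.6 to 112 CPM.

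Among other genes of the bHLH-PAS family, to which all members belong, 12 of 14 were tested in the gene body. With hypoxia 0 of 12 were called in either genotype. Averaged over both genotypes, 0 of 12 were called without the block and 2 of 12 with it, both lower, where 10.1% of all genes were called: the coactivators NCOA1 (adjusted p = 0.0304 with the block by edgeR) and NCOA2 (adjusted p = 0.0574). Their changes without the block were -0.45 and -0.25 on the log2 scale, and NCOA1 was lower in hypoxia in each of the 4 same-numbered pairs, at 65.6 and 50.4, 66.9 and 52.8, 57.96 and 41.5, and 79.98 and 57.96 CPM. In HIF1A-/- cells 4 of 12 were lower and 0 higher averaged over both oxygen levels, at a list median of -0.27 against 0.00 for all genes, of which 10.0% were called, 994 lower and 682 higher. These were AHR, the aryl hydrocarbon receptor (-0.61, adjusted p = 0.0739 by edgeR), its repressor AHRR (-0.43, adjusted p = 0.0561), and the clock factors ARNTL (-0.44, adjusted p = 0.0641) and ARNTL2 (-0.41, adjusted p = 0.0727). With the replicate block 7 of 12 were lower and 1 higher, where 36.0% of all genes were called. *EPAS1*, at -0.87, was further from 0 than any of these.

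The genes most alike to each member over the 8 libraries were found across all tested genes, which share library and depth. Likeness was Pearson's r of TMM-scaled log2 gene body CPM. For *EPAS1* they were MEF2C-AS1 (r = 0.998), KSR2 (0.993) and NR3C2 (0.993). For *HIF1A* they were UGCG (0.965), CYR61 (0.955) and GMEB2 (0.953). For *HIF3A* they were ABCG2 (0.983), TMEM62 (0.982) and TWIST2 (0.975), for *ARNT* TAOK3 (0.995), PLVAP (0.989) and ERO1B (0.987), and for *ARNT2* OLFM1 (0.992), IFI44 (0.992) and CRIP2 (0.985). Some of these genes had low levels, such as TWIST2 at 0.0909 to 2.12 CPM, PLVAP at 0.246 to 1.38 and IFI44 at 0.166 to 1.18. The 8 libraries fall into 4 groups, so these values describe a shared pattern in these libraries only.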

How the data were processed

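Nascent RNA was measured by PRO-seq in 8 libraries. Per the submitters' processing notes, reads were aligned to GRCh37 with HISAT2 2.1.0, and the authors deposited whole-number read counts from featureCounts (Subread 1.6.2), for 1 TSS region and 1 gene body of each gene. These choices are already in the counts, so other start sites cannot be recovered. Genes over 0.5 CPM in at least 2 libraries were kept, scaled by TMM factors, and the quasi-likelihood test of edgeR 4.0.16 (R 4.3.3) was applied in one fit of 4 group means, with Benjamini-Hochberg adjustment over all genes and calls at a false discovery rate of 10%. For the TSS-to-body ratio, 16 columns with a term per library were fitted. CPM per kb is CPM divided by region length. Intervals are 95%, and counting intervals cover counting error only.

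Same-numbered libraries deviated together in all 6 pairs of groups (correlations of 0.484 to 0.790 in gene bodies and 0.216 to 0.519 in TSS regions). The numbers in the labels were therefore used to pair the libraries in a second fit, with the replicate number as a block. The main fit leaves this pairing out and called fewer genes, such as 10.0% against 36.0% in gene bodies between the genotypes averaged. Alternatives were this replicate block, DESeq2 1.42.0, library totals, no filter, only the groups compared and each library left out. Joint scaling of both tables and leaving out both HIF1A-/- libraries numbered 1 were added after seeing the data. Fits were tested on simulated data with the same spread set for all genes. For hypoxia in WT cells, 34% of 2-fold changes were recovered in gene bodies and 24% in TSS regions at that set spread. Recovery at the spread of each member was not tested. Of 4-fold changes, 100% and 90% were recovered. Between the genotypes averaged, 85% of 2-fold changes were recovered in gene bodies, 77% in TSS regions and 22% for the TSS-to-body ratio. The members and lists were chosen with earlier results of these data known. Named genes were the members, called neighbours within 100 kb, called list genes and the 3 genes most like each member; VHL, HIF1AN and the antisense genes HIF1A-AS1 and HIF1A-AS2 were named after their values were seen.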

Additional observations from a re-analysis of the deposited data

Results flagged for a closer look

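LOC105370526, the gene antisense to *HIF1A*, was singled out because its response to hypoxia differed between the genotypes by a test of the difference itself. Its log2 gene body change was 5.13 in WT cells and 0.08 in HIF1A-/- cells, and the response in HIF1A-/- cells minus that in WT cells was -5.05 on the log2 scale (SE 0.618, adjusted p = 0.0799 by edgeR's quasi-likelihood test, and 0.0168 with the replicate block). No member had a called genotype difference in its response to hypoxia.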

How the results depend on the processing

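With 2 libraries per group, adjusted p-values moved more than log2 changes did, and thin TSS counts limit *HIF3A*, *ARNT* and *ARNT2*. Over 76 results and 1077 alternative values, 944 kept their direction and side of the threshold, 88 kept the direction only or changed a count, and 45 changed direction, all of the latter for values that were not called. The causes were not tested.

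Of 5 members, the number called in the gene body between the genotypes averaged over oxygen levels was 3 with the replicate block, 2 with DESeq2, 2 with DESeq2 and the block, 0 without both HIF1A-/- libraries numbered 1, and 0 to 1 with each library left out. In normoxia it was 1 with the block and 1 with DESeq2 and the block. In hypoxia it was 1 with the block, 1 with DESeq2, 1 with both, 1 with only the groups compared, and 0 to 1 with each library left out. In TSS regions the averaged number was 1 with the block: *HIF3A*, a description only, since the filter kept it through its WT libraries. For the TSS-to-body ratio in hypoxia it was 0 with joint scaling, 0 without the libraries numbered 1, and 0 to 1 with each library left out, and averaged it was 0 without those libraries and 0 to 1 with each left out. The block changed no other call of a member.

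Log2 changes near 0 changed sign as follows. For hypoxia in WT cells, *ARNT2* in the TSS region was 0.0085 with the block and 0.032 with DESeq2 and the block, and *HIF1A* there was -0.0061 with library totals. For hypoxia in HIF1A-/- cells, *ARNT* in the gene body was 0.015 with library totals. Without both libraries numbered 1, the response in HIF1A-/- cells was -0.049 for *ARNT2* in the gene body, -0.067 for *EPAS1* and 0.086 for *ARNT* in the TSS region, and the genotype difference of *HIF1A* was -0.048 in the normoxic gene body and 0.018 averaged in the TSS region. With joint scaling the ratio of *ARNT2* between the genotypes was -0.16.

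With each library left out in turn, these log2 changes ranged across 0. For hypoxia in WT cells in the gene body, they were -0.15 to 0.17 for *HIF1A*, -0.033 to 0.30 for *EPAS1*, -0.072 to 0.43 for *HIF3A* and -0.13 to 0.0036 for *ARNT*. For hypoxia in WT cells in the TSS region, they were -0.12 to 0.19 for *HIF1A*, -0.032 to 0.25 for *EPAS1*, -0.12 to 0.56 for *ARNT* and -0.49 to 0.72 for *ARNT2*. For hypoxia in HIF1A-/- cells in the gene body, they were -0.47 to 0.39 for *EPAS1*, -0.23 to 0.20 for *ARNT*, -0.14 to 0.18 for *ARNT2* and -0.40 to 0.82 for LOC105370526. For hypoxia in HIF1A-/- cells in the TSS region, they were -0.28 to 0.88 for *EPAS1* and -0.48 to 0.22 for *ARNT*. For HIF1A-/- against WT in normoxia in the gene body, they were -0.033 to 0.21 for *HIF1A* and -0.089 to 0.33 for *ARNT*. For HIF1A-/- against WT in hypoxia in the gene body, they were -0.066 to 0.34 for *ARNT*. For HIF1A-/- against WT averaged in the TSS region, they were -0.26 to 0.32 for *EPAS1* and -0.14 to 0.26 for *ARNT*. For HIF1A-/- against WT averaged in the TSS-to-body ratio, they were -0.22 to 0.12 for *ARNT*.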
